A study of Homo sapiens with 6 samples.

Results

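The genes described here are *RCC1*, *RAN*, *RANBP1*, *RANGAP1*, *XPO1*, *KPNB1*, *KPNA2*, *NUTF2*, *CSE1L* and *TNPO1*, which encode the regulators of the Ran GTPase and the main receptors that carry cargo into and out of the nucleus. They were picked by symbol, with earlier results of the same comparison known, and they make up 10 of the 63677 gene rows of the count table. All 10 had enough counts to enter the test, which covered 12507 genes. RNA was sequenced from human cells labelled LoVo, an established colorectal cancer line. One group of 3 libraries (SNHG15 siRNA) came from cells transfected with siRNA against *SNHG15*, a long non-coding RNA that hosts a small nucleolar RNA, and the other group of 3 libraries (scramble) from cells given a scramble siRNA. Both groups received 25 nM of siRNA with a lipid reagent and were collected 48 h later, without any other agent or allele named in the labels. According to the study's methods the knockdown used a combination of siRNAs, so the values of single siRNAs cannot be separated.

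Ran is a small GTPase that works as a compass for nuclear transport. RCC1, which sits on chromatin, loads Ran with GTP in the nucleus, whereas RANGAP1, together with RANBP1 or RANBP2, triggers GTP hydrolysis in the cytoplasm. Importins bind cargo in the cytoplasm and let it go on meeting RanGTP, exportins bind cargo together with RanGTP, and NUTF2 returns RanGDP to the nucleus. In mitosis RanGTP made around chromosomes frees spindle assembly factors from importins.

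The libraries held between 3446922 (scramble 3) and 10256710 (scramble 2) counts, so scramble 3 gave the least precise values. Levels are given as CPM, that is counts scaled to the library size with edgeR's TMM factors so that libraries can be compared. Errors are SD over the 3 libraries of a group. Fold changes are log2 values of SNHG15 siRNA over scramble from edgeR, with a standard error (SE). The SE was derived as the absolute log2 fold change divided by the square root of the F statistic of edgeR's quasi-likelihood test. The targeted *SNHG15* was measured at 276 ± 14.3 CPM in scramble and 82.5 ± 5.0 CPM in SNHG15 siRNA libraries, and it fell by 1.74 on the log2 scale (edgeR's quasi-likelihood test, adjusted p = 2.62e-05). By the same test, called at an adjusted p under 0.05, 671 genes changed, that is 5.36% of those tested, of which 392 were higher (3.13%) and 279 were lower (2.23%). An unadjusted p under 0.05 was found for 2820 genes, which is 22.5%. The number of calls rested on single libraries, with 139 without scramble 2 and 812 without SNHG15 siRNA 1 (66 and 387 of them lower). With upper-quartile scaling the split was 515 higher and 230 lower. SNHG15 siRNA 1 stood apart from the other libraries, at 37.9 on a first principal component where the other SNHG15 siRNA libraries were at 10.1 and 12.9 and the scramble libraries between -23.2 and -16.6. Of 10 listed markers of colorectal epithelium, *CDH1*, *CDX2*, *KRT8* and *KRT18* had at least 10 counts in every library, whereas *CDH17*, *VIL1*, *CDX1* and *KRT20* were at 0 in all 6 libraries and *EPCAM* had 2 counts in all. Several defining intestinal markers were thus at or near 0 in the libraries labelled LoVo, and the summed marker level was 102 to 110 CPM in scramble and 106 to 117 CPM in SNHG15 siRNA. Fibroblast, endothelial and leukocyte lists summed to at most 1.25 CPM in any library. In bulk RNA, fewer cells of a type and less RNA per cell cannot be told apart.

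Among the 10 genes, *RCC1* and *KPNB1* were called, both lower, which is 2 of 10 against 2.23% of all genes tested. In *RCC1*, *RAN*, *RANBP1* and *KPNB1* every SNHG15 siRNA library lay below every scramble library, a pattern found in 14.1% of all genes (28.8% with separate groups in either direction). The groups overlapped in the other 6 genes. The log2 fold change was below 0 in 9 of the 10 genes, with a median of -0.08, and below 0 in 49.9% of all genes, with a median of 0.00. As the genes were chosen with this contrast known, these counts are a description, nothing is read from them and no p-value is given for any of the 10.

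**Figure D1:**
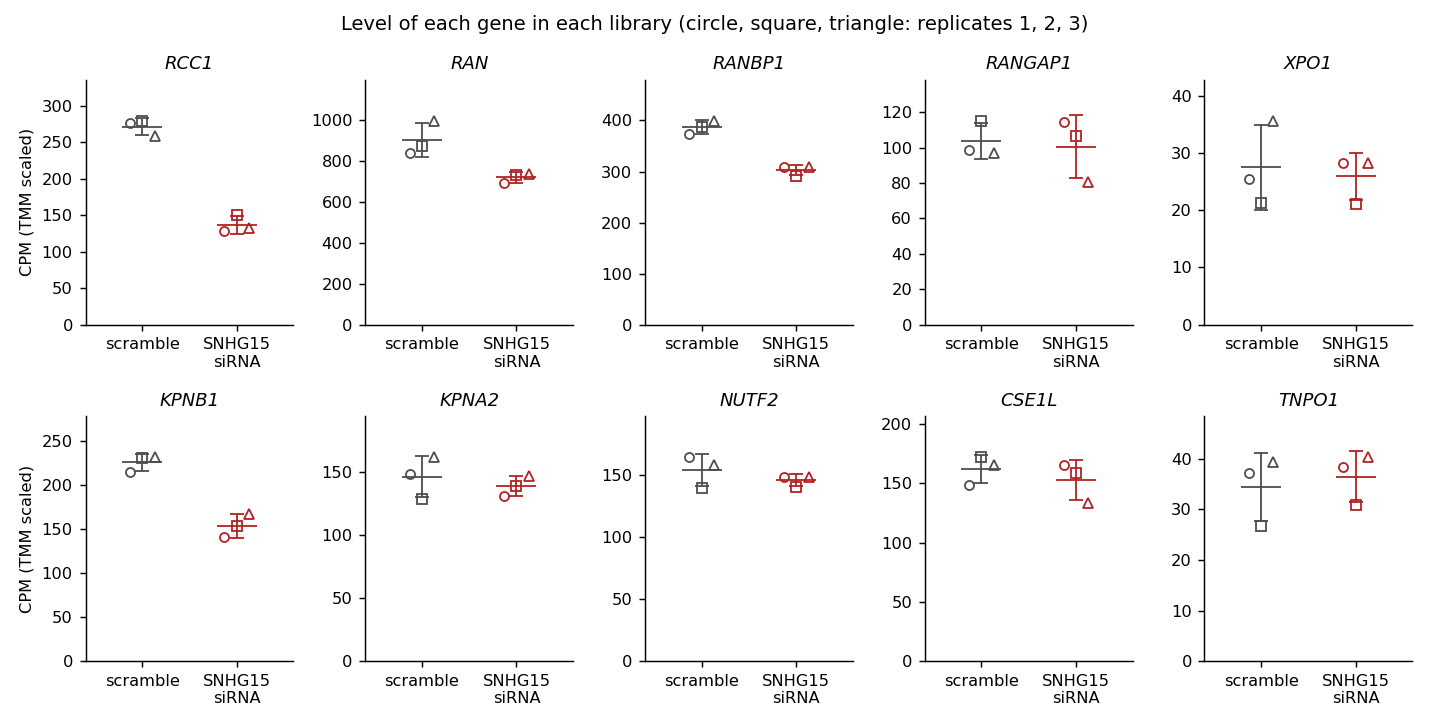
Level of each of the 10 genes in CPM (TMM scaled) in every library, with circles, squares and triangles for replicates 1, 2 and 3, a long line for the group mean and bars for the SD of 3 libraries. The 3 SNHG15 siRNA libraries lie below all scramble libraries for *RCC1*, *RAN*, *RANBP1* and *KPNB1*, and the groups overlap for the other 6 genes.

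*RCC1*, the guanine nucleotide exchange factor of Ran (ENSG00000180198, plus strand, GRCh37 chr1:28832455-28865812), showed the largest fold change of the 10. Its level was 277, 279.9 and 259 CPM in scramble 1 to 3, and 128, 150.5 and 132 CPM in SNHG15 siRNA 1 to 3. Each SNHG15 siRNA library was far below the lowest scramble library, and the spread within each group was small, 271.7 ± 11.5 CPM and 136.9 ± 11.9 CPM, respectively. The SNHG15 siRNA mean was 50.4% of the scramble mean, with a log2 fold change of -0.99 ± 0.12 (SE). Fits that each omitted 1 library gave -1.06 to -0.95, and the call was kept in 6 of 6 of them. The counts behind these values were 2361, 2814 and 855 in scramble, and 923, 1046 and 1127 in SNHG15 siRNA libraries.

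*RCC1* shares exon sequence near its start with *SNHG3*, a non-coding host gene of small nucleolar RNAs on the same strand (ENSG00000242125, GRCh37 chr1:28832492-28837404). The exons of both overlap over 242 of the 3888 exon bases of *RCC1*, where reads cannot be given to one gene with certainty. *SNHG3* was at 231, 238 and 224 CPM in scramble, and at 320.2, 320.5 and 250.1 CPM in SNHG15 siRNA libraries. All SNHG15 siRNA libraries were therefore above the scramble libraries, the opposite order to *RCC1*, though the difference did not pass the test (log2 fold change 0.36 ± 0.13, edgeR's quasi-likelihood test, adjusted p = 0.122). The ratio of *SNHG3* to *RCC1* counts was 0.835, 0.850 and 0.865 in scramble, and 2.50, 2.13 and 1.89 in SNHG15 siRNA libraries. Added together, both genes reached 508, 518 and 482 CPM in scramble and 448, 471 and 382 CPM in SNHG15 siRNA libraries. The groups of this sum did not overlap either, but they lay closer to each other than those of *RCC1* alone. The part that read assignment between the 2 genes has in these values was not tested.

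**Figure D2:**
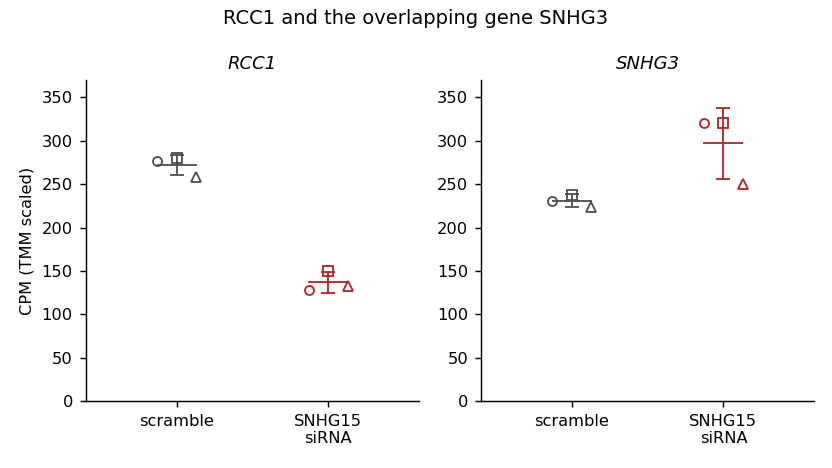
Level in CPM (TMM scaled) of *RCC1* and of the overlapping same-strand gene *SNHG3* in every library (circle, square and triangle for replicates 1, 2 and 3), with group means and the SD of 3 libraries. *RCC1* lies lower in all 3 SNHG15 siRNA libraries, and *SNHG3* lies higher in all 3, with SNHG15 siRNA 3 nearest to the scramble libraries.

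The study placed *SNHG15* in relation to MYC, a transcription factor that binds the E-box CACGTG, and the promoters of the 10 genes were searched for these letters, which read the same on both strands. RefSeq promoters (GRCh38.p14, from 250 bases before to 50 after a start) were at hand as 13 entries for 8 of the genes, with none for *RANBP1* and *KPNB1*. The motif was found in 3 of these entries, those of *RCC1*, *RAN* and *XPO1*, and in 7.26% of all 35116 promoter entries. The windows around it are shown because they hold one gene with a called difference, one that was lower without a call and one whose groups overlapped, with CACGTG in capitals and written 5′ to 3′ on the strand of the gene.
RCC1, chr1:28517999-28518078, plus strand: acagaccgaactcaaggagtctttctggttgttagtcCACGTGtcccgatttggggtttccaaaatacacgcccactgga
RAN, chr12:130871927-130872006, plus strand: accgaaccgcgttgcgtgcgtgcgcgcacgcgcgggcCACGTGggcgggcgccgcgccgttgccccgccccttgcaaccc
XPO1, chr2:61537089-61537168, minus strand: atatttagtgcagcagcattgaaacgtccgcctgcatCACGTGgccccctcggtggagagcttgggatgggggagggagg
The motif ended 184 bases before the second of the *RCC1* starts, 96 bases before the *RAN* start and 38 bases before the second of the *XPO1* starts. The first RefSeq *RCC1* start, without the motif in its window, lies 100 bases downstream of the RefSeq *SNHG3* start. The GRCh37 annotation used for the exon overlap has the other order, with *RCC1* beginning at 28832455 and *SNHG3* at 28832492. These matches describe the letters of the windows only.

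*RAN* itself (ENSG00000132341, plus strand, GRCh37 chr12:131356582-131362223) was the most abundant of the 10 genes. Its level was 837, 871 and 996 CPM in scramble, and 689, 732 and 736 CPM in SNHG15 siRNA libraries. The groups did not overlap, with means of 901 ± 83.5 and 719 ± 26.1 CPM, yet the difference was modest, 79.8% of scramble, with a log2 fold change of -0.33 ± 0.12 that was not called. *RANBP1*, the cytoplasmic RanGTP-binding partner of the GTPase-activating protein (ENSG00000099901, plus strand, GRCh37 chr22:20103461-20114878), followed the same order. It was measured at 374, 387 and 399.8 CPM in scramble, and at 309, 292 and 309 CPM in SNHG15 siRNA libraries. Its log2 fold change was -0.35 ± 0.11, with 78.4% of the scramble level left, and it was not called by edgeR but passed the threshold with DESeq2. Reads of *RANBP1* may be split with the pseudogene *RANBP1P1*, which held 11.3% as many counts, and with *TRMT2A*, a transfer RNA methyltransferase gene on the opposite strand with 16.6% as many. Adding the pseudogene's counts left the log2 fold change of *RANBP1* at -0.36. Neither *RANBP1P1* (log2 fold change -0.43 ± 0.16, edgeR's adjusted p = 0.124) nor *TRMT2A* (0.41, edgeR's adjusted p = 0.208) was called, and *TRMT2A* was at 0.17 without SNHG15 siRNA 1.

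*RANGAP1*, the GTPase-activating protein of Ran (ENSG00000100401, minus strand, GRCh37 chr22:41640783-41682191), did not separate the groups. Its level was 98.6, 115 and 97.1 CPM in scramble, and 115, 106 and 80.6 CPM in SNHG15 siRNA libraries. The lowest and one of the highest values were both found in SNHG15 siRNA libraries, and the log2 fold change was -0.05 ± 0.15, moving between -0.16 and 0.09 as single libraries were left out. Transcripts of the cycle were next compared by ratios of length-scaled levels, that is CPM per kilobase of merged exons. These ratios describe RNA only, as protein amounts and RanGTP were not measured. *RAN* exceeded *RCC1* 2.52, 2.59 and 3.21 times in scramble, and 4.49, 4.05 and 4.63 times in SNHG15 siRNA libraries. The ratio was thus higher in every SNHG15 siRNA library, as both genes were lower but *RCC1* more so. The ratio of *RANBP1* to *RANGAP1* was 4.99 ± 0.506 in scramble and 4.11 ± 0.855 in SNHG15 siRNA libraries, with overlapping groups. The size of these ratios depends on the length used. With canonical transcript lengths *RANBP1* to *RANGAP1* was 11.8 ± 1.19 in scramble and 9.70 ± 2.02 in SNHG15 siRNA libraries, again with overlap. On that scale *RAN* to *RCC1* was 3.43 ± 0.468 and 5.43 ± 0.374, respectively, again without overlap.

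*KPNB1* encodes importin beta, which carries the import complex through the pore (ENSG00000108424, plus strand, GRCh37 chr17:45726842-45762871), and it was the other called gene. Its level was 215, 230.4 and 231 CPM in scramble, and 141, 153 and 167 CPM in SNHG15 siRNA libraries. The groups were clearly separated, at 225 ± 9.41 and 153.5 ± 13.2 CPM, and SNHG15 siRNA libraries kept 68.1% of the scramble level (log2 fold change -0.55 ± 0.12). Omitting 1 library at a time gave -0.62 to -0.50, but the call was kept in only 2 of these 6 fits. It held without SNHG15 siRNA 1 (-0.50) and without SNHG15 siRNA 3 (-0.62). It was lost without scramble 1 (-0.59), scramble 2 (-0.53), scramble 3 (-0.54) or SNHG15 siRNA 2 (-0.55), where the fold change itself hardly differed.

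*KPNA2*, an importin alpha that joins cargo to importin beta (ENSG00000182481, plus strand, GRCh37 chr17:66031752-66043480), did not follow *KPNB1*. Its level was 149, 129 and 162 CPM in scramble, and 131, 139 and 147 CPM in SNHG15 siRNA libraries, with a log2 fold change of -0.07 ± 0.13. The scramble libraries enclosed all SNHG15 siRNA libraries. Of the 6 other importin alpha genes, listed with earlier results known, *KPNA7* had too few counts and 5 were tested. Of these, 2 were called higher and none lower, against 3.13% and 2.23% of all genes tested. In 2 of the 5 every SNHG15 siRNA library lay above every scramble library, against 14.7% of all genes. *KPNA6* was at 21.0, 18.9 and 16.6 CPM in scramble and at 49.5, 37.5 and 33.4 CPM in SNHG15 siRNA libraries. All SNHG15 siRNA libraries were above all scramble libraries, replicate 1 most, and the log2 fold change was 1.07 ± 0.18 (edgeR's quasi-likelihood test, adjusted p = 0.00569), kept in 6 of 6 fits with a library left out. *KPNA4* was at 29.2, 24.7 and 27.2 CPM in scramble and at 52.7, 38.3 and 42.5 CPM in SNHG15 siRNA libraries. Here too the groups were separated, with a log2 fold change of 0.72 ± 0.16 (edgeR's adjusted p = 0.0204). The call was lost without scramble 1 (edgeR's adjusted p = 0.0669), scramble 2 (0.115) or scramble 3 (0.0712), with log2 fold changes of 0.78, 0.66 and 0.72. The fold change of *KPNA4* was lowest without SNHG15 siRNA 1, at 0.58, where the call was kept. *KPNA1* (0.31), *KPNA3* (0.20) and *KPNA5* (-0.04) were not called.

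The makeup of the importin alpha transcripts differed between the groups, although *KPNA2* was the major one in all libraries. Per kilobase of merged exons, *KPNA2* made up 69.5%, 70.1% and 72.5% of the importin alpha sum in scramble, and 53.4%, 62.7% and 63.4% in SNHG15 siRNA libraries. *KPNA6* made up 9.05% ± 1.49 in scramble and 16.9% ± 2.84 in SNHG15 siRNA libraries, and *KPNA4* 7.05% ± 0.422 and 10.3% ± 1.16. With canonical transcript lengths the *KPNA2* share was 88.6% ± 0.719 and 82.6% ± 3.41, again without overlap. On that scale the other shares were smaller, with *KPNA6* at 3.09% ± 0.546 in scramble and 6.43% ± 1.42 in SNHG15 siRNA libraries. *KPNA4* was at 3.62% ± 0.267 and 5.84% ± 0.990, respectively. With merged exon lengths the importin alpha sum per *KPNB1* was 1.29 ± 0.147 in scramble and 2.14 ± 0.270 in SNHG15 siRNA libraries.

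**Figure D3:**
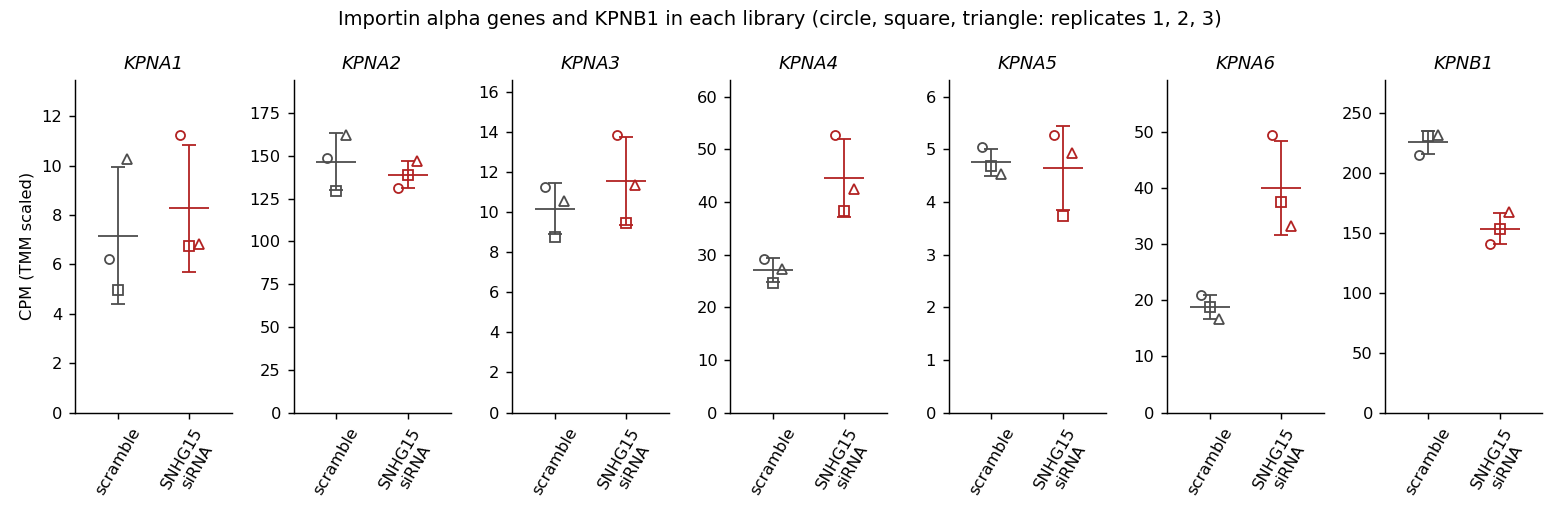
Level in CPM (TMM scaled) of 6 importin alpha genes and of the importin beta gene *KPNB1* in every library (circle, square and triangle for replicates 1, 2 and 3), with group means and the SD of 3 libraries, each panel on its own axis from 0. *KPNA4* and *KPNA6* lie higher in all SNHG15 siRNA libraries, *KPNB1* lies lower, and the groups overlap for the other 4 genes.

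The remaining receptors had overlapping groups and log2 fold changes near 0. *XPO1*, the exportin of proteins with leucine-rich export signals (ENSG00000082898, minus strand, GRCh37 chr2:61703167-61765876), was at 25.5, 21.3 and 35.7 CPM in scramble and at 28.3, 21.1 and 28.3 CPM in SNHG15 siRNA libraries. It rested on 118 to 241 counts a library, and its fold change of -0.05 ± 0.20 moved from -0.21 to 0.15 as single libraries were left out. *CSE1L*, which returns importin alpha to the cytoplasm (ENSG00000124207, plus strand, GRCh37 chr20:47662783-47713497), was at 149, 172 and 165 CPM in scramble and at 166, 159 and 134 CPM in SNHG15 siRNA libraries (-0.09 ± 0.13). *NUTF2*, the import carrier of RanGDP (ENSG00000102898, plus strand, GRCh37 chr16:67880785-67906470), was at 164, 139.8 and 158 CPM in scramble and at 149, 140.2 and 148 CPM in SNHG15 siRNA libraries (-0.08 ± 0.12). *TNPO1*, the import receptor of many RNA-binding proteins (ENSG00000083312, plus strand, GRCh37 chr5:72112139-72212560), was at 37.3, 26.8 and 39.3 CPM in scramble and at 38.4, 30.8 and 40.3 CPM in SNHG15 siRNA libraries (0.10 ± 0.17). In both groups of *TNPO1* replicate 2 was the lowest library. *NUTF2* is overlapped on the opposite strand by *CENPT*, a kinetochore gene at 26.5 ± 2.12 CPM in scramble and 29.8 ± 7.14 CPM in SNHG15 siRNA libraries, which was not called (log2 fold change 0.16, edgeR's adjusted p = 0.63). Of 24 pseudogenes of the 10 genes, 17 had no count, and adding their counts moved no gene's fold change by more than that of *RANBP1*. *RANP1* held 0.284% as many counts as *RAN*, and *KPNA2P2* 1.28% as many as *KPNA2*.

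Levels of different genes were compared per kilobase of merged exons in the scramble libraries. *RAN* came first at 193 ± 17.9 CPM per kilobase, followed by *RANBP1* at 83.7 ± 2.84 and *RCC1* at 69.9 ± 2.96. *CSE1L* (42.7 ± 3.12) and *NUTF2* (30.8 ± 2.56) came next, and then *KPNB1* (21.9 ± 0.913), *KPNA2* (19.9 ± 2.24) and *RANGAP1* (16.9 ± 1.65). *TNPO1* (2.63 ± 0.514) and *XPO1* (1.15 ± 0.310) were lowest. The ranges of *KPNB1* and *KPNA2*, and those of *KPNA2* and *RANGAP1*, overlapped, so the order of these neighbours is not set. In SNHG15 siRNA libraries *RCC1*, at 35.2 ± 3.07, came below *CSE1L*, at 40.2 ± 4.43, on this scale, with overlapping ranges. With canonical transcript lengths the first 3 genes kept their order, but *KPNA2* moved to the fourth place at 74.2 ± 8.33 and *XPO1* passed *TNPO1*, at 5.51 ± 1.48 against 4.06 ± 0.794. On that scale the ranges of *KPNA2* and *NUTF2* (72.8 ± 6.04), and those of *XPO1* and *TNPO1*, overlapped, so neither order is set. The 10 genes lie on 8 chromosomes, with *RANBP1* and *RANGAP1* both on chromosome 22 and *KPNB1* and *KPNA2* both on chromosome 17. The GC content of their canonical transcripts was 36.0% to 58.8%.

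Other genes of the pathway were taken from 5 further lists, chosen as the importin alpha genes were. None of the 11 other import receptor genes was called by edgeR (1 at an unadjusted p under 0.05, against 22.5% of all genes, and none by DESeq2), and the median log2 fold change was -0.04. The smallest p was that of *TNPO3*, an importer of splicing factors rich in serine and arginine, at 21.0, 29.5 and 29.3 CPM in scramble and at 64.3, 31.9 and 32.4 CPM in SNHG15 siRNA libraries. Its log2 fold change of 0.70 ± 0.25 (edgeR's adjusted p = 0.125) was 0.29 without SNHG15 siRNA 1. None of the 9 other export receptor genes was called by edgeR (2 at an unadjusted p under 0.05, against the same 22.5%, and 1 by DESeq2), with a median of -0.13. *XPO6*, the exportin of actin, came nearest, at 274, 332 and 292 CPM in scramble and at 204, 241 and 218 CPM in SNHG15 siRNA libraries (-0.44 ± 0.13, edgeR's adjusted p = 0.0611, and 0.0247 with DESeq2). The Ran binding and SUMO list held 9 tested genes that are named after Ran or act in the SUMO modification of its cycle. Not all of those named after Ran need bind it. None was called by edgeR (2 at an unadjusted p under 0.05, again against 22.5%, and 1 by DESeq2), with a median of -0.16. *RANBP9*, a scaffold protein, was at 93.3, 106 and 94.7 CPM in scramble and at 60.3, 71.6 and 78.6 CPM in SNHG15 siRNA libraries (-0.48 ± 0.13, edgeR's adjusted p = 0.0542, and 0.0287 with DESeq2). The groups of both *XPO6* and *RANBP9* did not overlap.

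Of 28 tested nuclear pore genes, 1 rose and 1 fell, against 5.36% of all genes called, and 10 had an unadjusted p under 0.05, against 22.5%. The median log2 fold change was -0.20, and in 14 of the 28 all SNHG15 siRNA libraries lay below all scramble libraries, against 14.1% of all genes, with 1 gene above against 14.7%. *NUP98*, a pore protein with repeats that receptors bind, was at 60.2, 60.3 and 60.2 CPM in scramble and at 43.9, 43.3 and 43.7 CPM in SNHG15 siRNA libraries. The values within each group were nearly equal, though they rested on 514, 606 and 199 counts in scramble and 317, 301 and 372 in SNHG15 siRNA libraries. This closeness of 3 values is therefore not a measure of their precision. The log2 fold change was -0.46 ± 0.12 (edgeR's adjusted p = 0.0469). This call was close to the threshold and was kept only without SNHG15 siRNA 1 (0.0328), whereas the adjusted p was 0.0826 to 0.148 without any other single library. It was also lost with upper-quartile scaling (0.0620), with at least 10 counts in every library (0.0573) and with the replicate block (0.0830). *TPR*, a filament protein of the nuclear basket, was at 20.4, 17.2 and 13.9 CPM in scramble and at 46.7, 32.7 and 26.8 CPM in SNHG15 siRNA libraries. It rose in all SNHG15 siRNA libraries with a log2 fold change of 1.01 ± 0.21 (edgeR's adjusted p = 0.0165). The call was lost without scramble 2 (0.0969) or scramble 3 (0.0710), where the log2 fold change was 1.00 and 0.91. The fold change was lowest without SNHG15 siRNA 1, at 0.75, where the call was kept. Among 8 spindle genes that Ran regulates or that act beside them, *TPX2*, an activator of Aurora A that importin alpha holds inactive, was the called one. It was at 174, 188 and 176 CPM in scramble and at 124, 123 and 111 CPM in SNHG15 siRNA libraries. It fell by 0.59 on the log2 scale (SE 0.12, edgeR's adjusted p = 0.0134), a call lost without scramble 1 (0.0557) or scramble 2 (0.0790), at -0.62 and -0.55. Of the 8 genes, 1 was called lower, against 2.23% of all genes, and 2 had an unadjusted p under 0.05, against 22.5%. In 2 of them all SNHG15 siRNA libraries lay below all scramble libraries, against 14.1% of all genes. The median log2 fold change of the 8 genes was -0.16.

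**Figure D4:**
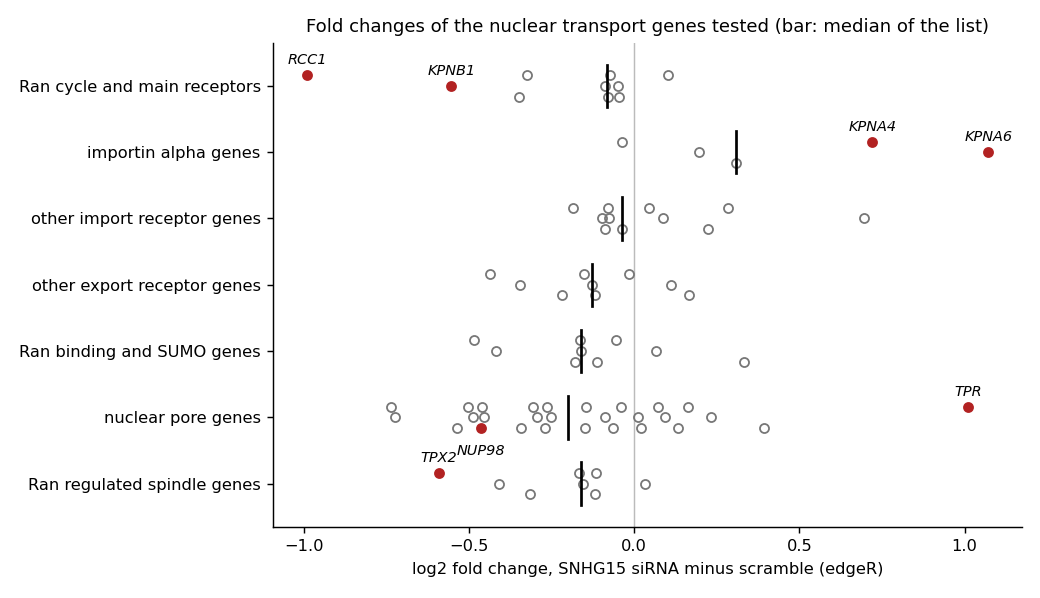
Log2 fold change (SNHG15 siRNA over scramble, edgeR) of the 10 genes described and of 6 lists of nuclear transport and spindle genes, 1 point a gene, with genes past an adjusted p of 0.05 in red and named, and the median of each list as a bar. *RCC1* lies lowest at -0.99 and *KPNA6* highest at 1.07, and most other points lie within 0.5 of 0.

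How the values of the 10 genes depend on single libraries and on the processing is shown by their fold changes in every fit. *RCC1* was called in all 7 alternatives with all libraries and *KPNB1* too, while *RANBP1* passed in 1 of 7 and *RAN* in none. *RCC1* was between -1.01 and -0.95 and *RAN* between -0.35 and -0.29 in these alternatives.

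**Figure D5:**
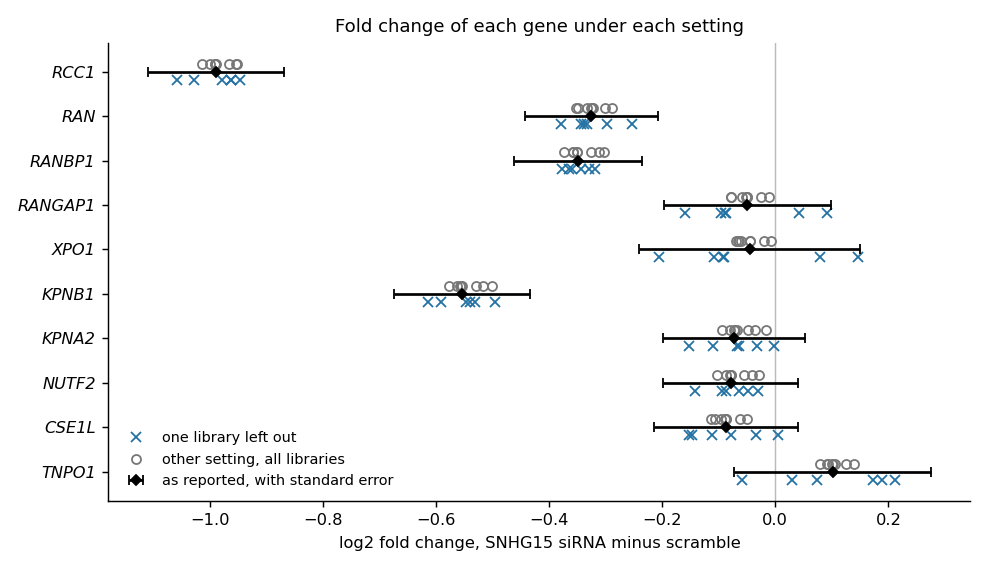
Log2 fold change (SNHG15 siRNA over scramble) of each of the 10 genes in the edgeR fit over all libraries with its SE (diamond and bar), in 7 alternatives with all libraries and the fit with pseudogene counts added (circles), and in 6 fits that each leave out a library (crosses). *RCC1*, *KPNB1*, *RANBP1*, *RAN*, *NUTF2* and *KPNA2* stay below 0 in every fit, with *KPNA2* at -0.002 without scramble 3. *XPO1*, *RANGAP1*, *CSE1L* and *TNPO1* reach both sides of 0 as libraries are left out.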

How the data were processed

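Paired-end reads of 75 bp from stranded polyA libraries were aligned and counted by the authors. The study's methods name bowtie2 and hg19, whereas the submitters' processing notes list STAR, featureCounts and hg19. The annotation, the strand setting and the treatment of reads with several placements are not given in the sources used here. The deposited values are raw counts per gene, 1 column a library, with totals of 8864258, 10256710 and 3446922 (scramble 1 to 3) and 7167066, 6787123 and 8061596 (SNHG15 siRNA 1 to 3). Groups were taken from the sample titles. The study's methods call the 3 replicates biological, without saying in the sources used here whether they were separate cultures, and p-values measure the spread between these libraries.

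Identifiers were matched to GENCODE release 44 on GRCh37, with 8012 left without an entry. Genes were kept by filterByExpr (minimum count 10) and scaled by TMM. They were tested with edgeR 4.0.16 (quasi-likelihood test, Benjamini-Hochberg adjustment over all 12507 genes, threshold 0.05) in R 4.3.3. The code was first run on simulated counts, which checks the code and not the calls given here. DESeq2 1.42.0, which the study used, other scalings and filters, a replicate block and leaving out each library were alternatives. The 10 genes and all lists were chosen with earlier results of these data known. Named genes were the 10, listed genes past the threshold, the gene of smallest p in a list without one, genes that overlap the 10 or are their pseudogenes with over 50 counts, *SNHG15*, and the 3 genes nearest *RCC1*.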

Additional observations from a re-analysis of the deposited data

How the results depend on the processing

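All 10 genes kept the direction of their fold changes, or moved by less than the replicate spread, in 80 of 80 comparisons that kept all libraries and in 60 of 60 that left out 1. A gained or lost call did not count as a change here. *KPNB1* was thus counted as kept where its call was lost, and *RANBP1* where DESeq2 called it. *XPO1*, *RANGAP1*, *CSE1L* and *TNPO1* were counted as kept though they took both signs as libraries were left out. Leaving out 1 library gave 139 to 812 calls over all genes (73 to 425 higher, 66 to 387 lower). It gave 1 to 2 calls among the 10 genes, 1 to 2 among importin alpha genes, 0 to 2 among nuclear pore genes, and 0 to 1 each among export receptors, Ran binding and SUMO genes and spindle genes. Without a filter on low counts 1312 genes were called (685 higher, 627 lower), with 7 nuclear pore genes and 1 each of the import receptors, export receptors and Ran binding and SUMO genes. DESeq2 called 4 nuclear pore genes, 1 export receptor gene and 1 Ran binding and SUMO gene, and a GC offset, chosen after seeing the data, called 5, 1 and 1. Upper-quartile scaling, a minimum of 10 counts in every library and the replicate block each left 1 nuclear pore gene called. The replicate block gave 543 calls in place of 671. Deviations of same-numbered libraries correlated at -0.07, 0.17 and -0.05, scramble 3 correlated best with SNHG15 siRNA 1 (0.16), and the numbers were not taken as pairs. Canonical transcript length, chosen after seeing the data, kept 5 of 10 genes at their rank. *CENPT* was between -0.042 (without SNHG15 siRNA 1, reversed) and 0.32 with 1 library left out. The cause of these changes was not tested. Scramble 3 had the fewest counts, 118 for *XPO1* and 130 for *TNPO1*.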

Other observations

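The genes whose levels ran most like those of *RCC1* over the 6 libraries were *SRF*, *CHRNB1* and *TXNRD2*, out of 12506 genes ranked by the distance between centred log2 profiles. *SRF*, a transcription factor of immediate early and actin genes, lay at a distance of 0.161, with 91.8 ± 4.37 CPM in scramble and 49.6 ± 4.47 CPM in SNHG15 siRNA libraries. *CHRNB1*, a subunit of the muscle acetylcholine receptor, lay at 0.189, with 76.5 ± 1.85 and 36.3 ± 1.10 CPM, and *TXNRD2*, the mitochondrial thioredoxin reductase, at 0.219, with 47.8 ± 0.935 and 25.3 ± 1.5 CPM. The median distance over all genes was 1.31, and among the genes of the Ran cycle *KPNB1* came nearest at 0.593, followed by *RANBP1* at 0.831 and *RAN* at 0.871. These genes were chosen for their likeness, so no test is given.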
